A study of Rattus norvegicus with 24 samples.

Results

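In the nerve-silenced muscle of aged rats, Asns, which encodes asparagine synthetase, was higher after repeated atrophy than in the untreated opposite limbs. Atf4, the gene of the transcription factor that gives this stress response its name, was lower in the same comparison. The rise of Asns after a single silencing period depended on which animals were included and on how limbs were paired. With all animals included, neither rise of Asns passed against the left limbs of sham-operated rats. Asns and Atf4 are 2 of the 10 integrated stress response genes described here (Atf4, Atf3, Ddit3, Chac1, Trib3, Asns, Sesn2, Psat1, Phgdh and Gdf15), out of 13458 gene symbols in the deposited table. Members were selected on being known ATF4 pathway genes and chosen by measured values in part, namely the fall of Chac1 between control and recovery limbs, the largest among all genes. Recovery vs. control is therefore given as values, with no test, for every member, and Chac1 is not tested in any comparison between groups that include recovery limbs or right limbs of the TTX animals. Where a symbol has several rows, the most abundant of them stands for it, which matters for Ddit3.

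The samples are pieces of the tibialis anterior (TA), the main muscle that lifts the foot, of 12 aged male Fischer 344 rats (23 ± 1 months). In 9 rats an osmotic pump delivered tetrodotoxin (TTX), a sodium channel blocker, to the left common peroneal nerve, so that the left TA could not be activated while the nerve to the calf still worked; the right limb got no TTX. Muscles were taken after 6 to 7 days of TTX (atrophy), after a further 9 days without it (recovery), or after that pause and 5 to 6 more days of TTX (repeated atrophy), with 3 rats in each group, and 3 sham-operated rats, 1 labelled with each time point, gave both limbs, for 24 limbs in all. Control means the 9 right limbs of the TTX rats, which share an animal with the treated limbs. No young, female or unoperated rats were compared.

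When a cell is short of amino acids, accumulates misfolded protein in the endoplasmic reticulum, is infected or lacks haem, 1 of several kinases phosphorylates the translation factor eIF2alpha. Most protein synthesis then slows while translation of the Atf4 mRNA rises, and ATF4 protein binds C/EBP-ATF response elements (CARE) in genes for amino acid synthesis and transport, redox balance and cell death. Because much of this control acts on translation, the level of Atf4 mRNA is not a measure of ATF4 protein. In skeletal muscle the pathway is known for its part in disuse and fasting atrophy, and the secreted factor encoded by Gdf15 is widely used as a marker of mitochondrial stress.

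Promoters of 4 members are shown because the results turn on these genes (Atf4, Chac1, Asns) or because they hold a CARE match (Chac1, Trib3). Each is the 250 bases before the RefSeq start of the gene on GRCr8, read 5′ to 3′ in the direction of the gene, with a motif match in capitals.
Atf4 (chr7:113684431-113684680, plus strand): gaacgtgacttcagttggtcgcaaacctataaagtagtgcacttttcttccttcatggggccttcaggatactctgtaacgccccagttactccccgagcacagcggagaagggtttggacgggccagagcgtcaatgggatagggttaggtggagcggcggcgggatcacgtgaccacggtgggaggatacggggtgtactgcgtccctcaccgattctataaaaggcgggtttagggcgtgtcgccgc
Chac1 (chr3:126795881-126796130, plus strand): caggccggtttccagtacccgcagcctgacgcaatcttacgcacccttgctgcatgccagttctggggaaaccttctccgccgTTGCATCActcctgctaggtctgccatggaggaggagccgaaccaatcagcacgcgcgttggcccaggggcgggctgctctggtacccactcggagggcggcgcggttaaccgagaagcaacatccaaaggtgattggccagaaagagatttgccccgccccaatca
Trib3 (chr3:161275534-161275783, minus strand): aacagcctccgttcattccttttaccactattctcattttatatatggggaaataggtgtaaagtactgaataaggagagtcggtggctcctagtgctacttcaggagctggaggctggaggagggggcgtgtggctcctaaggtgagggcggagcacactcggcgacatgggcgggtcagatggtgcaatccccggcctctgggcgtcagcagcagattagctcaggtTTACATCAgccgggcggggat
Asns (chr4:36769416-36769665, minus strand): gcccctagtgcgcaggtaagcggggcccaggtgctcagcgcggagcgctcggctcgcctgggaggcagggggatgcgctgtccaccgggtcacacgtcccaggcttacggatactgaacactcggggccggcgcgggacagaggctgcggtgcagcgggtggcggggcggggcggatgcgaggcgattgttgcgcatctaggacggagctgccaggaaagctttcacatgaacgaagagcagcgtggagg
The motifs searched on both strands were TGATGNAA, the core of a CARE, and TGACGTCA, the cyclic AMP response element (CRE). Both begin with TGA and differ after it, so they cannot match at the same start. Chac1 held TTGCATCA, the CARE core on the opposite strand, whose first base lies 167 bases before the start, and Trib3 held TTACATCA, also on the opposite strand, 21 bases before it. The other members with an entry, 7 of 9, held no CARE core in this window, and no member held the CRE, against 3.4% and 1.59% of 33469 promoters of the same length. Atf3 had no entry. A match is a description of letters and not a bound site.

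Levels are in CPM (reads of a gene in 1000000 reads), the deposited unit, and a depth of 18.9 to 30.9 M reads per limb was inferred from their smallest steps, so that 3 reads correspond to 0.0971 to 0.159 CPM. Tests used limma on log2(CPM + 1) over all rows above 0 in at least 3 limbs of a fit (14031 rows in the fit of the 18 limbs of TTX rats), and all 10 members passed that filter in every fit. To pass, a gene needed an adjusted p no higher than 0.05 and a change of 1.2-fold or more; SE is that of the log2 fold change (FC). Labels name separate animals, and both limbs of a rat are not independent. The median log2 FC of all rows was 0.22 after atrophy and 0.20 after repeated atrophy, and 0.00 and -0.01 after rescaling each limb by a trimmed mean of log ratios. In muscle tissue, fewer cells of a type and less RNA per cell cannot be told apart. The muscle fibre markers Acta1 (12300 CPM or more) and Ckm (8460 or more) were abundant in every limb. The left limb of atrophy animal 2 stood apart from the other silenced limbs in 3 genes of silenced muscle chosen after their values were seen. The acetylcholine receptor subunit genes Chrna1 and Chrnd had 69.9 and 90.4 CPM there, within the 15.7 to 95.2 and 14.4 to 131 of the control limbs, and at least 431 and 529 CPM in the other silenced limbs of the atrophy and repeated atrophy rats. The myogenic factor gene Myog had 187 CPM there, above the 18.2 to 132 of the control limbs and below the 420 or more of those other silenced limbs. Values without atrophy animal 2 stand beside many of the results for atrophy limbs.

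Per kilobase of transcript, averaged over the 24 limbs, Atf4 had by far the highest level of the members (298 CPM per kb). Chac1 (23.7), Ddit3 (16.8), Atf3 (7.65), Asns (3.30) and Sesn2 (2.00) followed, and Trib3 (0.534), Psat1 (0.394), Phgdh (0.262) and Gdf15 (0.198) were each below 1 CPM per kb. Atf4 thus stood well above its targets at the mRNA level, and 4 members were at or below 1 CPM in most limbs. For these 4 the added 1 in log2(CPM + 1) compresses changes, and counting error is large.

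Atf4 (chromosome 7, 111804398 to 111806458, rn7), the master transcription factor of the response, had 181, 387 and 276 CPM in the left limbs of atrophy animals 1, 2 and 3. The left limbs had 221, 214 and 221 CPM after recovery and 274, 138 and 119 CPM after repeated atrophy. Control limbs ranged from 267 to 619 CPM with a median of 391, and 1 of the 3 repeated atrophy limbs lay within that range. Levels were 416 ± 130 CPM in control (SD, n = 9) and 177 ± 84.6 after repeated atrophy (n = 3), a log2 FC of -1.27 (SE 0.29; limma, adjusted p = 0.00261). Rescaled, the difference was -1.65 (adjusted p = 0.00097), and with the animal as a block it was -1.63 (adjusted p = 0.0034). Atf4 was lower in the left than in the right limb of 3 of 3 repeated atrophy animals, by 1.63 ± 0.40 on the log2 scale, and it passed in all 24 alternatives tried. The summed level of 14 muscle fibre markers was also lower in these limbs, at 138000 to 175000 CPM against 199000 to 267000 in control, and its part in the Atf4 result was not tested. After atrophy the log2 FC was -0.57 (SE 0.29, adjusted p = 0.155), with the left limb lower in 2 of 3 animals. It was -0.84 without atrophy animal 2 (adjusted p = 0.0593), -0.34 without atrophy animal 1 (adjusted p = 0.594) and -0.94 when rescaled (adjusted p = 0.0641). In recovery the left limbs differed from control by -0.86 and from their own right limbs by -0.48 ± 0.30, lower in 3 of 3 animals.

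Direct comparisons between the treated left limbs did not pass for Atf4. Repeated atrophy vs. atrophy gave -0.70 (SE 0.35, adjusted p = 0.829), repeated atrophy vs. recovery -0.40 (SE 0.35, adjusted p = 0.415) and recovery vs. atrophy -0.29 (SE 0.35, adjusted p = 0.587), the last turning to 0.05 when rescaled and 0.10 with the block. With the block, repeated atrophy was at -1.15 against recovery (SE 0.32, adjusted p = 0.13; -0.76 and 0.168 when rescaled without it) and at -1.05 against atrophy (SE 0.32, adjusted p = 0.796). The left minus right differences were -1.17, -1.89 and -1.83 in the repeated atrophy rats and -0.82, -0.36 and -0.27 in the recovery rats. With the block, 0.0855% of all rows passed in repeated atrophy vs. recovery. At an unadjusted p under 0.05 (limma) stood 2760 of 14031 rows. Without atrophy animal 2, repeated atrophy vs. atrophy was -0.43 (adjusted p = 1) and recovery vs. atrophy -0.03 (adjusted p = 0.973). Sham left limbs had 618, 387 and 1190 CPM, so sham animal 3 was above every other left limb. Against these, the left limbs after repeated atrophy were lower by -1.99 (SE 0.41, adjusted p = 0.0345), a call that was lost without repeated atrophy animal 1, 2 or 3, recovery animal 1 or 2, or sham animal 1 (adjusted p 0.0522 to 0.127), and with no filter on low values (0.0552). The same comparison gave -1.29 after atrophy (SE 0.41, adjusted p = 0.442) and -1.58 after recovery (SE 0.41, adjusted p = 0.0904). Without sham animal 2 the recovery value was -1.97 (adjusted p = 0.0175).

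Atf3 (chromosome 13, 102751319 to 102764626), a stress-induced bZIP factor downstream of ATF4, did not pass in any comparison. Left limbs had 8.40, 12.8 and 38.0 CPM after atrophy and 19.4, 19.3 and 10.3 after recovery, and 21.5, 11.6 and 8.97 in repeated atrophy. The control limbs lay between 6.17 and 13.95 CPM (median 8.43) and overlapped each of these groups. Its log2 FC against control was 0.84 in the atrophy limbs (SE 0.35, adjusted p = 0.0908) and 0.56 in the repeated atrophy limbs (SE 0.35, adjusted p = 0.244), and the left limb was the higher one in 3 of 3 animals of both groups. The atrophy value was 0.32 without atrophy animal 3 and 0.50 when rescaled, and the repeated atrophy value was 0.23 without repeated atrophy animal 1 and 0.21 when rescaled. Sham animal 3 had 41.9 and 32.3 CPM in its left and right limb, and its left limb was the highest of all 24.

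Ddit3 (chromosome 7, 63116380 to 63121204) encodes CHOP, a bZIP factor linked to apoptosis after prolonged stress. By its more abundant row it had 13.6, 5.11 and 7.28 CPM in the left limbs after atrophy, 26.5, 25.4 and 16.2 in recovery and 25.3, 10.4 and 12.5 in repeated atrophy. Recovery was higher than atrophy by a log2 FC of 1.36 (SE 0.44, limma, adjusted p = 0.0403), in a comparison where 17.9% of all rows passed. That call was lost with the animal as a block (0.54, limma, adjusted p = 0.669) or as a random effect (1.27, adjusted p = 0.0527). It was also lost without atrophy animal 2 or 3, recovery animal 1 or 2, or repeated atrophy animal 2 (adjusted p 0.0517 to 0.131), and without atrophy animal 2 it was 1.08 (adjusted p = 0.108).

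The right limbs had 16, 8.98 and 8.89 CPM of Ddit3 in the atrophy animals, 21.3, 22.1 and 16.9 in the recovery animals and 15.1, 9.43 and 5.90 in the repeated atrophy animals. Untreated limbs of recovery animals thus also sat above those of atrophy animals, by 0.82 (SE 0.31, adjusted p = 0.249). In that comparison 2167 of 13848 rows stood at an unadjusted p under 0.05 (limma) and 0% passed. Repeated atrophy right limbs differed from those of recovery animals by a log2 FC of -1.0 (SE 0.31, adjusted p = 0.926). Against control, Ddit3 differed by -0.61 in atrophy limbs (SE 0.36, adjusted p = 0.232) and by 0.21 in repeated atrophy limbs (SE 0.36, adjusted p = 0.709), and the latter was -0.15 when rescaled. The atrophy value was -0.39 without atrophy animal 2 (adjusted p = 0.52) and -0.92 without atrophy animal 1 (adjusted p = 0.229). The files give Ddit3 a further row of 813 bases (mean 8.78 CPM; the main row has 861 bases and 14.5 CPM), and how reads were divided between them is not given in the sources used here. Summed over both rows, recovery vs. atrophy was 0.88 (adjusted p = 0.0387) and repeated atrophy vs. control -0.13 (adjusted p = 0.717).

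**Figure D1:**
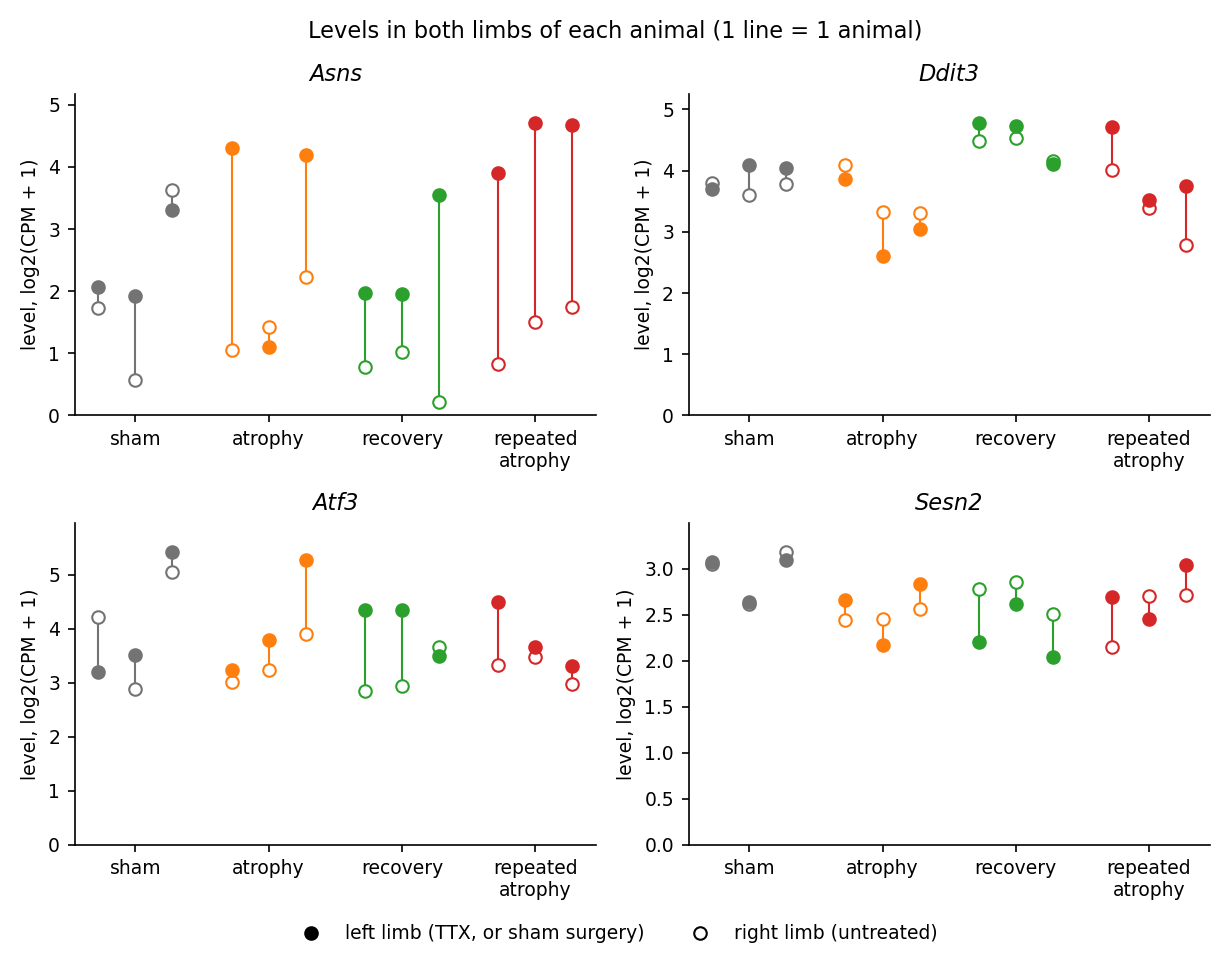
Levels of Asns, Ddit3, Atf3 and Sesn2 as log2(CPM + 1), with each rat drawn as a line from its left limb (filled) to its right limb (open) and colours and horizontal position giving the group (3 rats each, animals 1 to 3 from left to right). For Asns the 3 repeated atrophy rats have left limbs at 13.98 to 25.2 CPM and right limbs at 0.782 to 2.34, while atrophy animal 2 has both limbs below 2 CPM; for Ddit3 both limbs of the recovery rats are at 16.2 CPM or more.

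Asns (chromosome 4, 35785725 to 35803081), which makes asparagine from aspartate and glutamine, was the member with the clearest rise in silenced limbs. Control limbs had 0.163 to 3.68 CPM (median 1.08). Left limbs had 18.7, 1.15 and 17.3 CPM after atrophy, 2.94, 2.87 and 10.7 after recovery, and the repeated atrophy limbs had 13.98, 25.2 and 24.4. All 3 repeated atrophy limbs and 2 of the 3 atrophy limbs were above the highest control limb, and atrophy animal 2 was near the control median. From 1.48 ± 1.05 CPM in control (SD, n = 9), Asns rose to 21.2 ± 6.26 after repeated atrophy (n = 3), a log2 FC of 3.23 (SE 0.54, adjusted p = 0.000352), which passed in all 24 alternatives. With the block the rise was 3.07 (adjusted p = 0.00666), and within the 3 rats it was 3.07 ± 0.14.

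After atrophy Asns rose to 12.37 ± 9.74 CPM (log2 FC 2.00, SE 0.54, adjusted p = 0.0168). Blocking on animal gave 1.63 (adjusted p = 0.204); no row of the whole table passed in atrophy vs. control with the block (0 of 14031 by limma, 2678 at an unadjusted p under 0.05). Without atrophy animal 2 the rise was 3.07 (adjusted p = 0.000245), and it did not pass without atrophy animal 1 (1.43, adjusted p = 0.217) or 3 (1.63, adjusted p = 0.0781). Repeated atrophy exceeded recovery by 1.94 (SE 0.67, adjusted p = 0.038), but not when rescaled (1.62, adjusted p = 0.0646), with the block (1.25, adjusted p = 0.434) or without recovery animal 1 or 2 or repeated atrophy animal 2 or 3 (adjusted p 0.104 to 0.15), and it passed in 13 of 24 alternatives. Repeated atrophy vs. atrophy differed by 1.23 (SE 0.67, adjusted p = 0.873) and by 0.18 without atrophy animal 2 (adjusted p = 1). Recovery vs. atrophy was -0.71 (SE 0.67, adjusted p = 0.479), which turned to 0.19 with the block (adjusted p = 0.979) and became a fall of -1.75 without atrophy animal 2 (adjusted p = 0.0239). In recovery, Asns was higher in the left limb in 3 of 3 animals, by 1.82 ± 1.32 within animals and by 1.29 against control.

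Asns in sham limbs reached above the control limbs in 1 rat. Sham animals 1, 2 and 3 had 3.18, 2.79 and 8.89 CPM in the left and 2.31, 0.484 and 11.4 CPM in the right limb, so that both limbs of sham animal 3 lay above all 9 control limbs without TTX. Left limbs after repeated atrophy were 2.00 above sham left limbs (SE 0.76, adjusted p = 0.162), and without atrophy animal 2, which enters only through the shared spread, the adjusted p was 0.033. Those after atrophy were 0.77 above sham (SE 0.76, adjusted p = 0.727), or 1.81 without atrophy animal 2 (adjusted p = 0.0989). The summed level of 5 satellite cell markers, 2 of them below 1 CPM on average, was 67.0 to 243 CPM after atrophy and 185 to 279 after repeated atrophy. In control it was 52.4 to 99.6 CPM. Recovery left limbs, where Asns was higher than on the right in 3 of 3 animals, had 54.0 to 83.5 CPM, within that range. The 14 muscle fibre markers summed to 113000 to 210000 CPM after atrophy and 138000 to 175000 after repeated atrophy. They had 226000 to 241000 CPM in recovery left limbs and 199000 to 267000 in control. Their part in the Asns result was not tested.

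The serine synthesis genes showed no such rise. Phgdh (chromosome 2, 185906965 to 185936161), the first enzyme of serine synthesis, had 0 to 0.618 CPM in the 9 left limbs of TTX rats and 0.0371 to 0.885 in control. Psat1 (chromosome 1, 213196710 to 213218565), the enzyme after it, had 0.0709 to 0.687 CPM in those left limbs and 0.138 to 0.722 in control. Sham animal 1 had the highest Phgdh (1.63 and 2.27 CPM in the left and right limb), and Psat1 was highest in sham animals 1 (2.76 and 2.65 CPM) and 3 (1.89 and 2.65 CPM). Against control, Psat1 differed by 0.16 (adjusted p = 0.402) after atrophy and -0.17 (adjusted p = 0.363) after repeated atrophy, and Phgdh by 0.04 (adjusted p = 0.898) and -0.21 (adjusted p = 0.335). Some of these directions turned under other settings. Against sham left limbs, Psat1 after repeated atrophy was at -1.01 (SE 0.27, adjusted p = 0.0665), which passed when rescaled (-1.0, adjusted p = 0.046) and without sham animal 2 (-1.36, adjusted p = 0.0371). Psat1 in recovery was at -0.72 against sham (SE 0.27, adjusted p = 0.185), which passed without sham animal 2 (-1.07, adjusted p = 0.0155). Phgdh after repeated atrophy was at -0.63 against sham (SE 0.24, adjusted p = 0.168), which passed without sham animal 3 (-0.93, adjusted p = 0.0325).

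Sesn2 (chromosome 5, 144702296 to 144721242), a leucine sensor that restrains mTORC1, did not pass in any comparison. It lay between 3.11 and 8.06 CPM in all 24 limbs, with a log2 FC of -0.02 for atrophy (SE 0.20, adjusted p = 0.957) and 0.15 for repeated atrophy (SE 0.20, adjusted p = 0.609), the former 0.16 without atrophy animal 2 (adjusted p = 0.644) and the latter -0.17 when rescaled. In the recovery rats the left minus right difference was -0.43 ± 0.17 (SD, n = 3), with the left limb lower in 3 of 3, given without a test. Trib3 (chromosome 3, 140809641 to 140815231), a pseudokinase that restrains ATF4 and AKT, had 0.101 to 1.24 CPM in the left limbs of TTX rats and 0.0369 to 1.24 in control. Its log2 FC was 0.35 for atrophy (SE 0.19, adjusted p = 0.198; 0.52 and 0.0835 without atrophy animal 2) and 0.12 for repeated atrophy (SE 0.19, adjusted p = 0.682). Gdf15 (chromosome 16, 18805312 to 18807894) was above 0 in 16 of 24 limbs. It was listed at 0 in all 6 limbs of the recovery animals, which at the inferred depths allows 0.109 to 0.152 CPM per limb, for counting error only. Left limbs had 0.102, 0.0384 and 0.553 CPM after atrophy and 0.168, 0.213 and 0.191 after repeated atrophy, against 0 to 0.234 in control. The corresponding differences were 0.19 (adjusted p = 0.177) and 0.16 (adjusted p = 0.227), and the atrophy difference was 0.31 without atrophy animal 2 (adjusted p = 0.0333) and 0.0012 without atrophy animal 3. Recovery vs. atrophy was -0.28 for Gdf15 (SE 0.12, adjusted p = 0.112), which passed without atrophy animal 2 (-0.39, adjusted p = 0.0306). Gdf15 was highest in sham animal 3, at 1.01 and 1.04 CPM.

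Chac1 (chromosome 3, 106342302 to 106345527) encodes an enzyme that breaks down glutathione and is among the targets most sharply induced by ATF4 and CHOP. Left limbs had 9.35, 73.0 and 19.5 CPM after atrophy, 2.18, 0.327 and 2.92 in recovery and 17.9, 12.5 and 17.7 in repeated atrophy. All 3 recovery limbs were below the lowest control limb (3.87 CPM; control median 31.0, highest 92.8), which is the pattern that chose the gene. Recovery limbs differed from control by -3.22 on the log2 scale. Within the recovery animals the left limb was 1.49 ± 0.70 (SD, n = 3) below the right, and their right limbs had 10.9, 3.87 and 5.27 CPM. The right limbs of the other TTX rats had 31.0, 63.0 and 92.8 CPM (atrophy) and 25.9, 33.1 and 37.0 (repeated atrophy), which put the recovery right limbs 2.61 below them on the log2 scale.

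Chac1 also differed widely between the sham rats. Sham animal 1 had 24.5 and 27.1 CPM, sham animal 2 had 4.03 and 8.08, and sham animal 3 had 193 and 177 in the left and right limb. Sham animal 2 is the 1 whose label names the recovery time point. The 8 limbs of the 4 rats labelled with that time point, 5 of them without TTX, had 0.327 to 10.9 CPM, and the other 16 limbs had 9.35 to 193, so that 1 of the 16 was below the highest of the 8. Time point and group of rats cannot be told apart in the TTX animals, and 1 sham rat carries each time point.

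**Figure D2:**
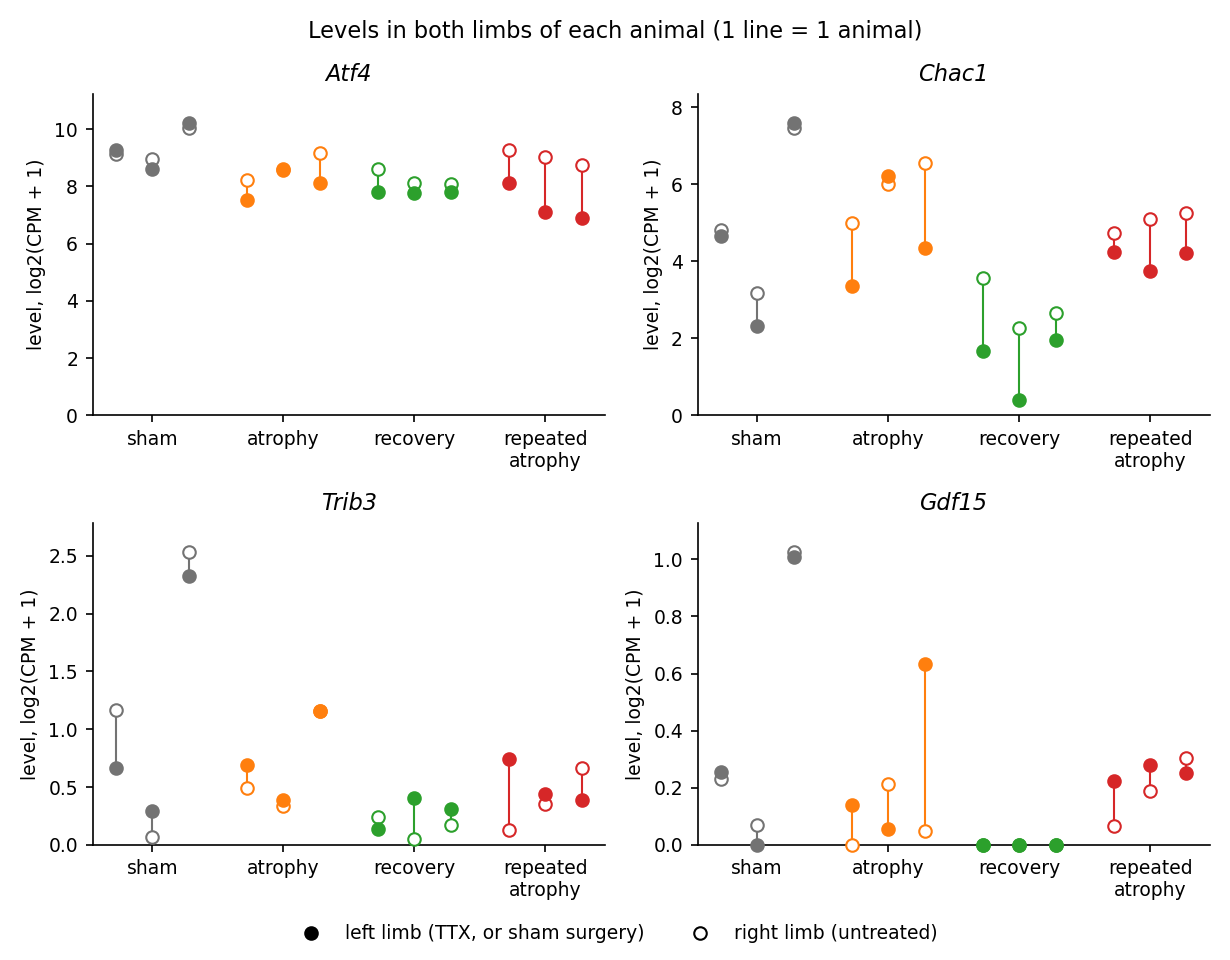
Levels of Atf4, Chac1, Trib3 and Gdf15 as log2(CPM + 1), drawn as for Asns with a line from the left limb (filled) to the right limb (open) of each rat, 3 rats per group. Both limbs of a recovery rat are low for Chac1 (0.327 to 10.9 CPM), both limbs of sham animal 3 are high for all 4 genes, and Gdf15 is at 0 in both limbs of all 3 recovery rats, where the points overlie each other.

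Chac1 did not pass between the other groups, but the spread in these tests against sham left limbs and between atrophy and repeated atrophy comes in part from the recovery limbs and, for the latter, the control limbs that chose the gene. Repeated atrophy vs. atrophy gave -0.57 (SE 0.92, adjusted p = 1; 0.999 with only the limbs of these 2 groups in the fit), which turned to 0.21 without atrophy animal 2. Against sham left limbs it was at -0.22 in atrophy (SE 1.05, adjusted p = 0.957) and -0.79 in repeated atrophy (SE 1.05, adjusted p = 0.705). The atrophy value was -1.0 without atrophy animal 2 (adjusted p = 0.677), and without sham animal 3 the 2 values were 1.15 (adjusted p = 0.494) and 0.57 (adjusted p = 0.696). Left and right limbs of sham rats differed by -0.29 (SE 0.20, adjusted p = 0.936). With the control limbs set beside the left limbs as values, the differences were 0.07 after atrophy and -0.50 after repeated atrophy, but the left limb was below the right in 2 of 3 atrophy rats and 3 of 3 repeated atrophy rats (-1.20 ± 1.26 and -0.95 ± 0.42 within animals).

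**Figure D3:**
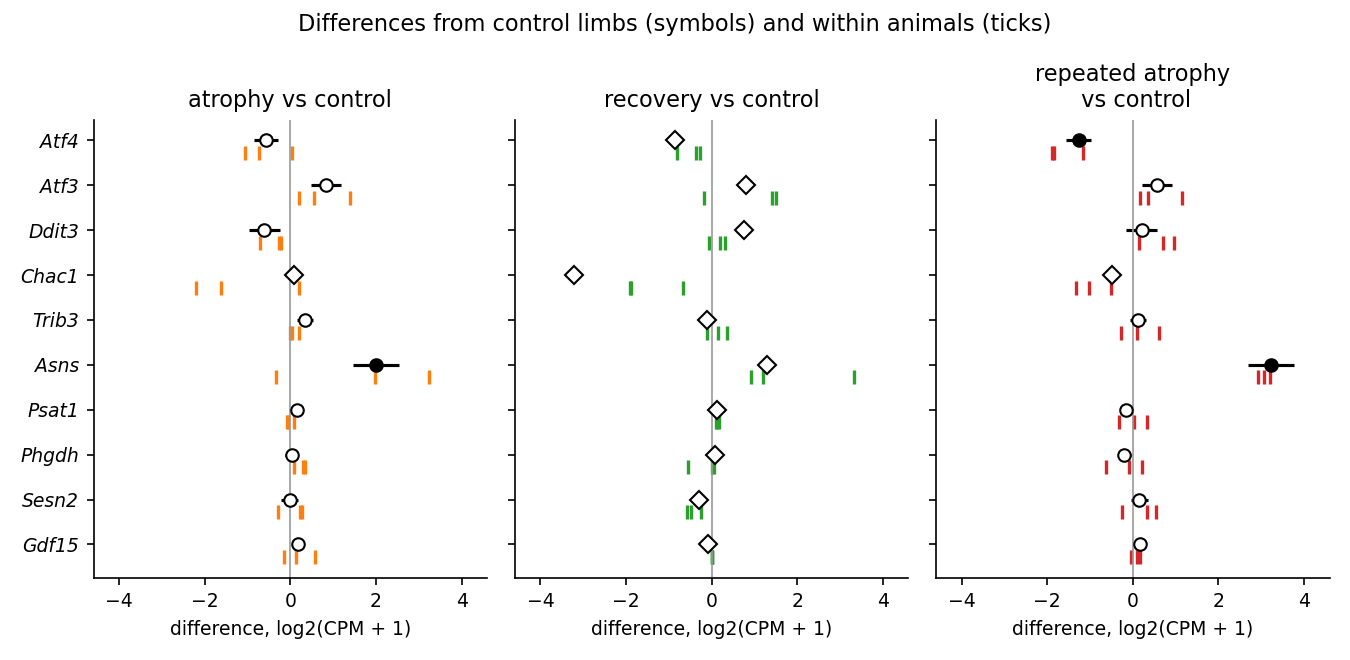
Difference in log2(CPM + 1) of each member in 3 comparisons with the 9 control limbs: circles are tested values with their SE (filled, passed), diamonds are values given without a test, and coloured ticks are the left minus right differences of the 3 rats. Asns passed after atrophy (2.00) and repeated atrophy (3.23), Atf4 after repeated atrophy (-1.27), and the Chac1 diamond in recovery (-3.22) lies beyond all 3 ticks of its own rats.

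Counted over the members, 1 of 9 passed in atrophy vs. control (Asns), where 22.6% of all rows passed, and 2 of 9 in repeated atrophy vs. control (Asns and Atf4), where 34.3% did. A single member (1 of 9) passed in recovery vs. atrophy (Ddit3; 17.9% of all rows) and 1 of 9 in repeated atrophy vs. recovery (Asns; 27.2%). Repeated atrophy vs. atrophy gave 0 of 10, beside 0.0356% of all rows. At an unadjusted p under 0.05 (limma) there were 0 of 10 members and 884 of 14031 rows. Against sham left limbs, 0 of 10 passed after atrophy (2 at an unadjusted p under 0.05, Atf4 and Psat1; 0% of all rows, or 1456 unadjusted), 0 of 9 after recovery (3 unadjusted, Sesn2, Atf4 and Psat1; 0.0144% of all rows, or 2607 unadjusted) and 1 of 10 after repeated atrophy (Atf4; 4 unadjusted, with Asns, Phgdh and Psat1; 2.88% of all rows, or 2942 unadjusted). The shares over all rows moved with the setting. When rescaled, 9.68% of all rows and 1 of 9 members (Asns) passed in atrophy vs. control, and 25.2% and 2 of 9 in repeated atrophy vs. control. Without atrophy animal 1, 1 of 13993 rows (0.00715%) and 0 of 9 members passed in atrophy vs. control (limma; 2867 rows at an unadjusted p under 0.05). Both comparisons with control share the same 9 limbs.

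Untreated right limbs were compared across animals to see whether control is uniform for these genes. None of 9 members passed between atrophy, recovery and repeated atrophy right limbs, and 0% of 13848 rows did (limma; 2167, 525 and 734 rows at an unadjusted p under 0.05 for recovery vs. atrophy, repeated atrophy vs. atrophy and repeated atrophy vs. recovery). At an unadjusted p under 0.05 stood Ddit3 in recovery vs. atrophy, and Ddit3 and Atf4 in repeated atrophy vs. recovery. Atf4 was higher by 0.74 in repeated atrophy than in recovery right limbs (SE 0.31, adjusted p = 0.926) and lower by -0.39 in recovery than in atrophy right limbs (adjusted p = 0.559). Asns was at -0.89 in recovery vs. atrophy right limbs (SE 0.61, adjusted p = 0.487). Between the left and right limbs of the sham rats, 0 of 10 members and 0% of 13483 rows passed (576 unadjusted, no member among them), with Atf4 at -0.01 (adjusted p = 1) and Asns at 0.45 (adjusted p = 0.936).

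Related genes were counted for the 2 comparisons with control, where 20.3% of all rows were higher and 2.33% lower after atrophy (4.73% and 4.95% rescaled), and 28.1% and 6.24% after repeated atrophy (13.1% and 12.1% rescaled). With the block no row passed after atrophy, so its counts below hold without the block. Upstream of ATF4, 11 of 15 eIF2alpha kinases, eIF2 and eIF2B subunits and phosphatase regulators were higher after repeated atrophy and 0 lower, with a median log2 FC of 0.53, against 8 and 0 after atrophy (median 0.56). When rescaled, 3 were higher after repeated atrophy and 1 after atrophy, and with the block 8 after repeated atrophy. Eif2s3, the gamma subunit of eIF2, rose from 79.0 ± 18 CPM in control to 181 ± 16 after repeated atrophy (log2 FC 1.22, SE 0.19, adjusted p = 0.000223). Ppp1r15a, the GADD34 regulator that leads to eIF2alpha dephosphorylation and is itself induced by ATF4, had 54.1 ± 33.7 and 108 ± 44.2 CPM (1.12, SE 0.41, adjusted p = 0.04; 0.75 and 0.17 rescaled; block adjusted p = 0.064).

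Partners of ATF4 and related bZIP factors went in both directions, with 2 of 11 higher and 3 lower after repeated atrophy (2 and 0 after atrophy; 2 and 4 after repeated atrophy when rescaled). Jun (215 ± 59.6 to 456 ± 78.6 CPM, limma, adjusted p = 0.00131) and Nfe2l2, the NRF2 gene of the oxidative stress response (62.3 ± 16.1 to 134 ± 24.6, adjusted p = 0.000921), rose. Cebpd fell from 17.9 ± 14.5 to 4.17 ± 0.738 CPM (-1.61, SE 0.52, adjusted p = 0.0236) and Atf5 from 25.2 ± 6.65 to 15 ± 2.36 (-0.68, SE 0.23, adjusted p = 0.0277). Cebpg, a dimer partner of ATF4, was at -0.43 (adjusted p = 0.0455; block adjusted p = 0.159).

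Other known ATF4 targets split as well. Among those of amino acid supply, 5 of 19 were higher and 3 lower after repeated atrophy (6 and 2 after atrophy), with a median log2 FC of 0.27. When rescaled, 4 were higher and 3 lower after repeated atrophy, with a median of -0.05, and 2 higher and 3 lower after atrophy. Slc6a9, a glycine transporter, rose from 2.29 ± 0.953 to 10.1 ± 1.17 CPM (1.81, SE 0.32, adjusted p = 0.000446) and Slc38a2, a neutral amino acid transporter, from 334 ± 155 to 716 ± 141 (1.19, SE 0.30, adjusted p = 0.00537). The aminotransferase genes Gpt2 (221 ± 81.0 to 90.3 ± 42.5 CPM, adjusted p = 0.0443) and Got1 (582 ± 142 to 333 ± 81.5, adjusted p = 0.0109) fell. Of the remaining targets, 7 of 18 were higher and 4 lower after repeated atrophy (3 and 6 rescaled), against 6 and 1 after atrophy (2 and 1 rescaled). Gadd45a, a growth arrest gene known to be induced through ATF4 in immobilized muscle, had the largest rise, with 127 ± 82.8 CPM in control and 1740 ± 528 after repeated atrophy (log2 FC 4.04, SE 0.59, adjusted p = 0.000142). Cdkn1a, the p21 cell cycle inhibitor, rose from 102 ± 46.7 to 1040 ± 133 CPM (3.53, SE 0.56, adjusted p = 0.000252), while Ddit4, an mTORC1 inhibitor, fell from 31.1 ± 18.4 to 13.0 ± 4.21 (-1.06, SE 0.40, adjusted p = 0.0494). Lists of this kind were drawn up with earlier results of these data known, so their counts are a description.

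Genes of charging and folding were among the more uniform lists. Of the cytosolic aminoacyl-tRNA synthetases, which load tRNAs with amino acids, 9 of 14 were higher after repeated atrophy and 0 lower (8 and 0 after atrophy). When rescaled, 6 were higher after repeated atrophy and 1 after atrophy, and 9 with the block after repeated atrophy. Farsb (47.8 ± 11.5 to 105 ± 23.6 CPM), Wars1 (41.8 ± 5.22 to 87.2 ± 22.2) and Nars1 (79.3 ± 9.15 to 152 ± 7.38) rose most. Among 21 chaperones and other genes of the unfolded protein response in the endoplasmic reticulum, 18 were higher after atrophy and 14 after repeated atrophy, and 0 were lower. When rescaled, 10 and 7 were higher and 1 was lower after repeated atrophy, and with the block 13 were higher after repeated atrophy. Sdf2l1, an endoplasmic reticulum chaperone component, went from 4.28 ± 1.55 CPM in control to 16.9 ± 6.83 and 14.8 ± 2.21, and Herpud1, of the degradation machinery for misfolded proteins, from 210 ± 65.2 to 417 ± 109 and 500 ± 61.9 CPM. Both passed in both comparisons (adjusted p = 0.00506 and 0.00063 for Sdf2l1, 0.00817 and 0.000379 for Herpud1).

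**Figure D4:**
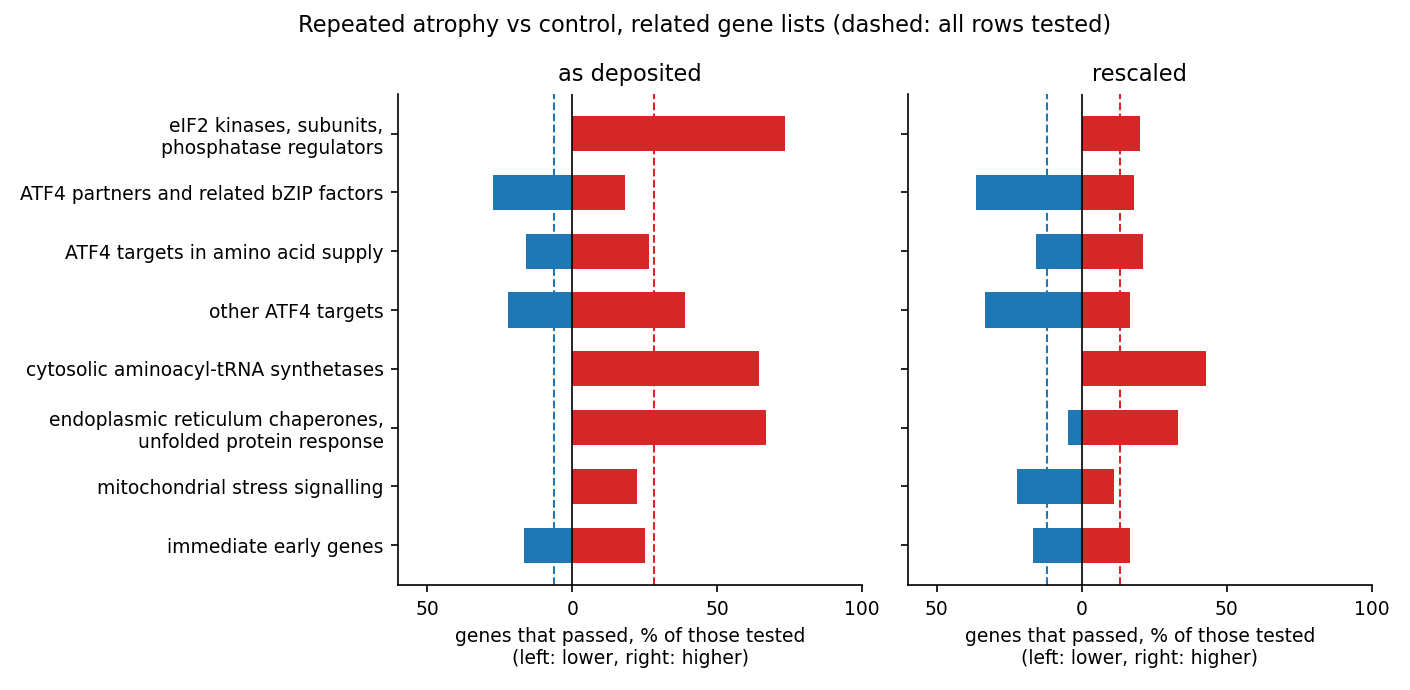
Share (%) of the tested genes of each list that passed in repeated atrophy vs. control, higher to the right (red) and lower to the left (blue), for values as deposited in the left panel and rescaled by a trimmed mean in the right panel; dashed lines give the share of all rows tested (28.1% higher and 6.24% lower, or 13.1% and 12.1% rescaled). Bars of the eIF2 genes, the other ATF4 targets, the synthetases and the endoplasmic reticulum genes extend beyond the dashed line on the higher side in both panels. The ATF4 partners, the amino acid supply targets and the immediate early genes do so only when rescaled. On the lower side, these 3 lists and the other ATF4 targets extend beyond the line in both panels. The mitochondrial stress genes do so when rescaled, and the endoplasmic reticulum list then has a lower bar (1 of 21).

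Levels of the members over the 24 limbs ran together in part. The most alike pair was Trib3 and Gdf15 (Pearson r = 0.90 over 24 limbs), followed by Atf3 and Trib3 (0.74); Chac1 had r = 0.68 with Trib3 and 0.66 with Atf4. Other pairs ran opposite ways, with r = -0.58 for Ddit3 and Chac1 and -0.33 for Atf4 and Asns. These values are descriptions, since limbs share animals and both limbs of sham animal 3 are high for several members. Values for Chac1, also those with other genes, include the recovery and control limbs that chose it. Among 7951 other genes with a mean of at least 5 CPM, those most like Chac1 were Zkscan5 (0.93), Foxo4 (0.93) and Acsf2 (0.92), those most like Atf4 were Adhfe1 (0.90), Fam220a (0.88) and Tango2 (0.88), and those most like Asns were Eef1a1 (0.97), Ctnna1 (0.96) and Srgap2 (0.95). The gene most alike was Mrps9 for Ddit3 (0.71), for Trib3 Mcrip1 (0.90), for Sesn2 Asb6 (0.88), for Psat1 Acer2 (0.93), for Phgdh Susd2 (0.91) and for Gdf15 Irs2 (0.90).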

How the data were processed

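A table of 24 limbs from 12 rats was used, and 3 further value columns that match no sample were not. In Partek, the authors filtered contaminants with Bowtie2 2.2.5, aligned reads to rn7 with STAR, and deposited CPM; the annotation and counting step are not given in the sources used here. A median of ratios is named in the study's methods. With duplicate rows dropped, the columns summed to 998736 to 999058 each, near 1000000. Inferred reads were whole within 0.05 for 87.5% to 89.3% of low values, so they were not treated as recovered counts. Of 14271 rows, 28 duplicates were dropped.

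An intensity trend was used in limma 3.58.1 (R 4.3.3) on log2(CPM + 1), with Benjamini-Hochberg adjustment over all rows, in 4 fits: the 18 limbs of TTX rats, 12 left limbs, 12 right limbs, and 6 sham limbs paired by animal. Scripts were tested on simulated data. The labels pair limbs by animal, and the 2 limbs' deviations from group means correlated with a mean r of 0.276 (0.656 to 0.874 in sham rats, -0.269 to 0.656 in TTX rats). The members and lists (15 lists of 191 genes) were chosen with earlier results of these data known. From each list, at most the 3 largest rises and 3 largest falls that passed in repeated atrophy vs. control were eligible to be named, with a mean of at least 5 CPM in a group. Alternatives were pseudocounts of 0.1 and 10, trimmed mean rescaling (30% of ratios and 5% of levels), quantile normalization, a mean filter or none, no trend, a fold of 1.5, rows summed per symbol, 12 right limbs as control, animal as a fixed or random effect, only the groups compared, and each animal left out. Rescaling combined with the block, with summed rows or with a pseudocount of 0.1 was added after seeing the data. Promoters came from RefSeq (GRCr8), with 9 of 10 members matched. Likeness to other genes is not reported here for Atf3.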

Additional observations from a re-analysis of the deposited data

Results flagged for a closer look

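Ddit3 stood out by opposite directions within animals: its main row was lower in the left than in the right limb of 3 of 3 atrophy rats (-0.40 ± 0.27 on the log2 scale, SD) and higher in 3 of 3 repeated atrophy rats (0.60 ± 0.43). The difference between the groups was 0.99 (SE 0.30), which did not pass with the animal as a block (limma, adjusted p = 0.796). Summed over both rows of Ddit3, the left limb was higher in 1 of 3 rats of either group (-0.20 ± 0.47 and -0.07 ± 0.64).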

How the results depend on the processing

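Over all alternatives, 228 counts of members stayed within 1.5 times the reported count, 27 fell below it and 7 rose; of the named values, 939 kept direction and call, 30 lost a call, 9 gained one and 38 turned direction. The count in atrophy vs. control was 0 with the replicate block, with or without rescaling, and 0 to 2 with an animal left out. In recovery vs. atrophy it was 0 with the block, with the block and rescaling and with animal as a random effect, and 0 to 2 with an animal left out. In repeated atrophy vs. recovery it was 0 with rescaling, quantile normalization, the block, the block with rescaling, 12 right limbs, and summed rows with rescaling, and 0 to 1 with an animal left out. A count could also stay the same while its member changed. Asns was lost there with a pseudocount of 0.1 (limma, adjusted p = 0.0842) and without repeated atrophy animal 3 (0.104), at an unchanged count. Gdf15 and Psat1 each passed there in 1 alternative (lowest adjusted p 0.0458 and 0.0414). Against sham left limbs, recovery gave 0 to 2 with an animal left out, and repeated atrophy gave 2 when rescaled, 0 with no filter and 0 to 2 with an animal left out. Beyond these the block changed no call of a member; among the list genes named with values it ended those of Ppp1r15a (adjusted p = 0.064) and Cebpg (0.159) in repeated atrophy vs. control, and over all rows it left 0 calls in atrophy vs. control against 3171, 2 against 2505 in recovery vs. atrophy and 12 against 3823 in repeated atrophy vs. recovery.

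These log2 values turned sign and passed in neither case; the cause was not tested. In atrophy vs. control, Trib3 was at -0.03 (block with rescaling), Sesn2 at 0.07 (block) and -0.16 to 0.16 with an animal left out, Psat1 at -0.02 (block), -0.05 (12 right limbs) and -0.12 (block with rescaling), and Phgdh at -0.06 (rescaling, quantile normalization, summed rows with rescaling), -0.05 (12 right limbs) and -0.10 to 0.10 with an animal left out. In repeated atrophy vs. control, Ddit3 was at -0.15 (rescaling), -0.17 (quantile), -0.13 (summed rows), -0.50 (summed and rescaled) and -0.12 to 0.40 with an animal left out, Trib3 at -0.09 (12 right limbs) and -0.02 to 0.22, Sesn2 at -0.17 (rescaling, and with summed rows), -0.16 (quantile) and -0.11 (block with rescaling), and Psat1 at 0.01 (block). In recovery vs. atrophy, Asns was at 0.19 (block) and 0.42 (block with rescaling), and Atf4 at 0.05 (rescaling, and with summed rows), 0.11 (quantile), 0.10 (block) and 0.23 (block with rescaling). Chac1 in repeated atrophy vs. atrophy was at -1.21 to 0.21 with an animal left out, and fits with an animal term were not used for it, since they draw on the right limbs that chose it; against sham left limbs it ranged from -1.49 to 1.15 in atrophy and -2.06 to 0.57 in repeated atrophy. Atf4 between sham limbs ranged from -0.11 to 0.16.

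With 3 rats a group and inferred depths, members below 1 CPM rest on few reads. The smallest difference detectable in Trib3, Psat1, Phgdh and Gdf15 was not measured.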

Other observations

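Immediate early genes, which respond quickly to activity, stress or tissue handling and include partners of ATF4, were mixed: 3 of 12 were higher and 2 lower after repeated atrophy, and 2 higher and 1 lower after atrophy. Btg2 rose from 48.8 ± 27.5 CPM in control to 137 ± 65.5 after repeated atrophy, and Nr4a1 fell from 151 ± 48.0 to 31.8 ± 9.09 (log2 FC -2.19, SE 0.36, limma, adjusted p = 0.000331). The summed level of the 12 genes was 418 to 642 CPM in control (median 460), 602 to 1020 in atrophy, 574 to 895 in repeated atrophy and 370 to 507 in recovery left limbs.

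Of 9 mitochondrial stress genes, 2 were higher and 0 lower after repeated atrophy (1 and 2 rescaled): Yme1l1, a protease of the inner membrane (44.6 ± 12.0 to 95.5 ± 23.9 CPM), and the chaperonin gene Hspe1 (74.9 ± 18.5 to 119 ± 24.3). Among cell markers after repeated atrophy, 2 of 5 satellite cell genes were higher (Myf5, 4.64 ± 2.84 to 43.5 ± 15.3 CPM, and Myod1, 62.8 ± 16.8 to 179 ± 35.4), and of 14 fibre genes 1 was higher (Mb) and 2 lower (Actn3 and Casq1). No gene of the macrophage (12), fibroblast (8), endothelial (10), Schwann cell (8) or adipocyte (5) lists passed in that comparison with values as deposited and no block. When rescaled, 5 endothelial, 1 macrophage and 1 Schwann cell gene were lower, and with the block 1 Schwann cell gene was lower. After atrophy, satellite cell genes gave 2 higher, and fibre and Schwann cell genes 1 lower each. The summed fibroblast markers were 1250 to 2370 CPM in recovery left limbs and 214 to 633 in control; their part in the recovery values of the members was not tested.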
